A study of Homo sapiens with 6 samples.

Results

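Eph receptors and their ephrin ligands were followed through mRNA sequencing of 786-O cells, an established human line from clear cell renal cell carcinoma (ccRCC), with or without stable knockdown of YB1. The 10 genes were taken by name from the 20030 genes of the deposited table and comprised 5 receptors (EPHA2, EPHA4, EPHB2, EPHB3 and EPHB4) and 5 ligands (EFNA1, EFNA4, EFNA5, EFNB1 and EFNB2). The shYB1 cells stably carried a lentiviral small hairpin RNA (shRNA) against YB1, and the vector cells carried a scrambled shRNA. Both were harvested after puromycin selection, at passages 16 to 18. Each group had 3 libraries, numbered 1 to 3 in the labels. No label ties them to separate infections, so the p-values measure the spread between libraries, which may be technical. The series text mentions several independent shRNAs, whereas the labels give a single shYB1 group, and the cells of both groups share 1 parental line with no second line or rescue among the sequenced samples.

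The Eph family is the largest group of receptor tyrosine kinases. A-class receptors mainly bind ephrin-A ligands, which are tethered to the membrane by a lipid anchor, and B-class receptors mainly bind ephrin-B ligands, which span the membrane. Because both partners sit on cell surfaces, contact between cells sends a forward signal into the receptor cell and a reverse signal into the ligand cell, and both alter adhesion, repulsion and migration. EphA2 is the member most studied in epithelial tumours. Ephrin-A1 drives its tyrosine phosphorylation and its removal from the surface, whereas EphA2 without ligand can be phosphorylated on a serine by AKT and RSK kinases. The study asked whether YB1 acts upstream of EphA2, so the mRNA of EPHA2 was set here beside that of its sister receptors and of the ligands that occupy them.

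YB1 is named for the Y-box, the word CCAAT or its reverse complement ATTGG. The study looked for this word at EPHA2, over a longer stretch upstream than the windows used here, and reported putative Y-box words there. By chromatin immunoprecipitation in 786-O cells, the study found no binding of YB1 to any of the EPHA2 promoter fragments it examined. RefSeq promoter windows (GRCh38.p14, 250 bases before to 50 bases after the start of the gene) were found for all 10 genes, and both strands were searched for CCAAT and ATTGG. At least 1 match was present in 5 promoters and no match in 5. Over all 35116 promoter windows of this length, 34.6% held a match, and over those of the genes tested here the share was 35%. EPHA2, EPHA4, EPHB2, EFNA1 and EFNA5 held none, but the whole EFNA1 window lies inside an annotated exon, so its letters are not those upstream of every annotated transcript of EFNA1. EFNB1 held ATTGG 184 and 78 bases before the start of the gene, counted to the first letter of the word. EFNB2 held CCAAT 135 and 65 bases before it. EPHB3 held CCAAT 234 bases, EPHB4 CCAAT 102 bases and EFNA4 ATTGG 67 bases before it. With the 250 upstream bases alone the same 5 promoters held a match, and 32% of all windows did. A match is only a description of the letters, and the absence of one refers to this window alone. The sequences of EPHA2, which the study examined, of EFNA5, which had no match, and of both ephrin-B genes, which had a pair of matches each, are printed 5′ to 3′ on the strand of the gene with the Y-box words in capitals, and bases inside annotated exons were left off. EPHA2 is at chr1:16156088-16156319 (minus strand), EFNA5 at chr5:107670938-107671187 (minus strand), EFNB1 at chrX:68828771-68828996 (plus strand) and EFNB2 at chr13:106535663-106535912 (minus strand).
EPHA2: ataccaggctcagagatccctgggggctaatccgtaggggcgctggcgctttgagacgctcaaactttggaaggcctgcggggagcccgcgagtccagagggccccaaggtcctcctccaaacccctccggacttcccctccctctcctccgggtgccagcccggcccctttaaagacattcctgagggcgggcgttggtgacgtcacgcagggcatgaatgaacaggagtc
EFNA5: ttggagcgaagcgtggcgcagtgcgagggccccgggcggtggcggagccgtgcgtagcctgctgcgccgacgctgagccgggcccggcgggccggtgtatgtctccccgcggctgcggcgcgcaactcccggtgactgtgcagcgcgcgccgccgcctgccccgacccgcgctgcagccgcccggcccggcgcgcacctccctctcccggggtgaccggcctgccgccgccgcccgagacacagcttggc
EFNB1: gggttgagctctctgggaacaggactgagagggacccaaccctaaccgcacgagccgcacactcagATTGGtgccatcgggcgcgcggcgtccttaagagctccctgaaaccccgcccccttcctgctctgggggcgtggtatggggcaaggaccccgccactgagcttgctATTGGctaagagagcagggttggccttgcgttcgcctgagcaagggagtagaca
EFNB2: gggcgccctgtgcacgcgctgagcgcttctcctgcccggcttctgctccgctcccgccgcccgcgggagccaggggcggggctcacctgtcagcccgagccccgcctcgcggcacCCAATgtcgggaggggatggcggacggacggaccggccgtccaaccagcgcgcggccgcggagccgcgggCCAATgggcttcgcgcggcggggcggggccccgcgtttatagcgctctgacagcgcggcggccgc

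The deposited values are FPKM, fragment counts scaled to transcript length and to the mapped fragments of the library, so levels of different genes can be compared per length. FPKM hold no counts, the depth of the libraries is therefore unknown, and no counting interval was computed. Totals over all genes were between 282736 and 295887 FPKM, and the spacing of values under 0.08 FPKM gave depths of 0.98 to 1.1 times that of shYB1 replicate 1. Groups were compared with limma on log2(FPKM + 0.1), two-sided, over the 10439 genes whose mean reached 1 FPKM, and p-values were adjusted by the Benjamini-Hochberg method over all of them. Fold changes are on that scale, which understates the change of low genes. YBX1, the gene of YB1, fell by 1.14 on the log2 scale in shYB1 cells (standard error 0.031, adjusted p = 1.53e-08 from limma). All 10 renal epithelial and carcinoma markers passed the filter. Their summed levels were 2110 to 2215 FPKM in vector and 2183 to 2225 FPKM in shYB1 libraries. Most of each sum came from VIM, a mesenchymal gene, with means of 1400 FPKM in vector and 1437 FPKM in shYB1 cells. In limma 1 was lower (CDH6) and 2 were higher (PAX2 and KRT19), against 6.93% lower and 18.7% higher over all genes tested. Median-of-ratios size factors gave 3 lower and none higher, against 12% and 11.4% over all genes. CDH6 fell from 47.9 FPKM in vector to 33.0 FPKM in shYB1 cells (log2 fold change −0.54, adjusted p = 3.92e-06 from limma). PAX8, a kidney lineage factor, had 77.1 FPKM in vector and 77.5 FPKM in shYB1 cells. EPHB4 and EFNB2 are also known from endothelium. The 8 endothelial markers summed to 0.638 to 0.708 FPKM in vector and 0.519 to 0.690 FPKM in shYB1 libraries, with CDH5 and EMCN listed at 0 in all 6. Among leukocyte markers CD3E was listed at 0, and the sum of 22.5 to 26.0 FPKM came almost entirely from CD68, a lysosomal protein gene that fell by 0.16 on the log2 scale (adjusted p = 0.00969 from limma). The 7 fibroblast and smooth muscle markers summed to 4.49 to 5.34 FPKM over all libraries, with COL1A2 listed at 0. LUM (2.06 FPKM in vector and 2.31 FPKM in shYB1 cells) and ACTA2 (2.09 and 1.97 FPKM) passed the filter, and neither was called.

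A single receptor dominated the family. EPHA2 had the highest level of the 10 genes in both groups, with a mean of 51.7 ± 0.832 FPKM under the vector and 56.3 ± 0.579 FPKM after knockdown (SD, n = 3 for both). It made up 90.8 ± 0.200% of the summed FPKM of the 5 receptors in vector cells (SD, n = 3). In vector cells the order below it was EFNA1, EFNA5, EFNA4, EFNB1, EPHB2, EFNB2, EPHA4, EPHB4 and EPHB3, and the ranges of the 3 libraries did not overlap between any neighbours in this order. The order was the same in shYB1 cells, where only EFNA5 and EFNA4 overlapped. All 5 ligands were expressed above 2 FPKM, and none of the other 4 receptors exceeded 3.05 FPKM in any library. EPHB3, an ephrin-B receptor of epithelia, was listed at 0 in all 6 libraries. The ranking of the levels is shown in the plot of FPKM by gene.

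**Figure D1:**
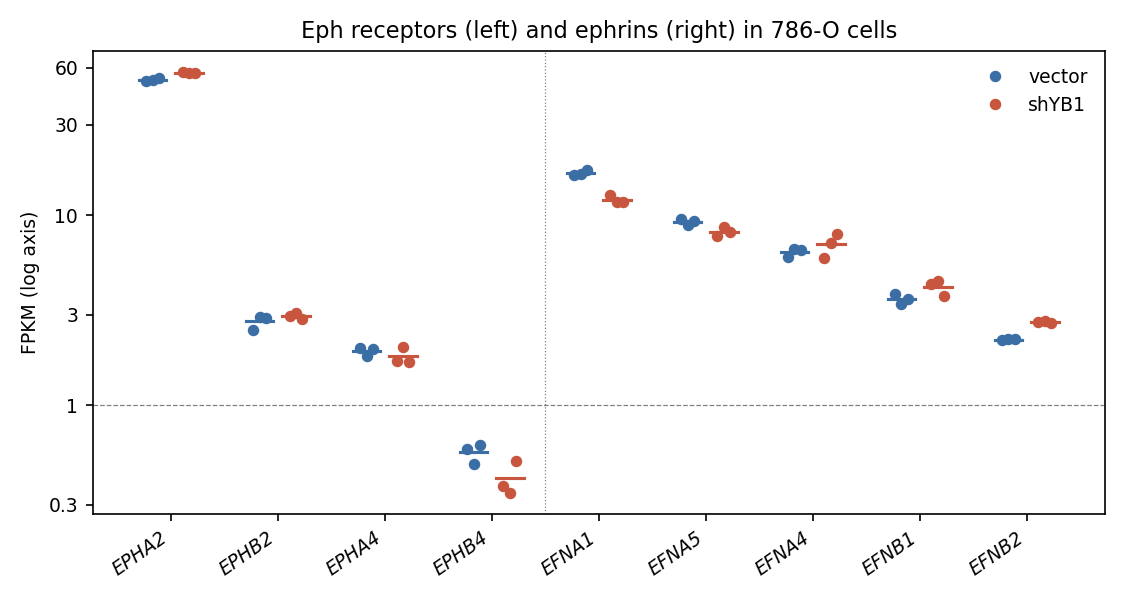
FPKM on a log axis for 9 of the 10 genes, with 1 point for each of 3 vector (blue) and 3 shYB1 (red) libraries and a line at each group mean. The dashed line marks the filter of 1 FPKM, and EPHB3 is left out because it is listed at 0. EPHA2 stands far above the other receptors, at 51.1 to 57.0 FPKM.

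Of the 10 genes, 8 passed the filter and were tested (3 receptors and 5 ligands). In shYB1 cells 2 were lower (EFNA1 and EFNA5), 2 were higher (EFNB2 and EPHA2) and 4 did not pass an adjusted p of 0.05 in limma. Over all genes tested, 6.93% were lower and 18.7% were higher by the same rule, 25.7% in all. With no filter on low values, EFNA1 alone was lower and EPHA2 and EFNB2 were higher, against 3.85% lower and 9.89% higher (13.7% in all) of the genes then tested. The median log2 fold change was 0.11 over the 8 genes and 0.055 over all genes tested. Median-of-ratios size factors, which moved the median of all genes to 0.00090, left 2 of the 8 lower and 1 higher, against 12% lower and 11.4% higher over all genes (23.4% in all). The groups did not overlap in the same 4 genes, which compares with 42.6% of all genes tested (12.5% with shYB1 below and 30.1% with shYB1 above vector). In bulk RNA, fewer cells expressing a gene and less RNA per cell cannot be told apart, and this holds for every change given here.

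EFNA1 had the largest change among the genes of the family tested. It encodes ephrin-A1, the ligand best known for engaging EphA2, and occupies positions 155127460 to 155134857 of chromosome 1 (GRCh38, plus strand). Vector libraries held 16.4, 16.5 and 17.3 FPKM, and shYB1 libraries held 12.8, 11.8 and 11.8 FPKM. Every shYB1 library lay below every vector library, and the mean was 0.725 times that of vector cells. On the log2 scale this was −0.46 with a standard error of 0.049 and a 95% confidence interval of −0.57 to −0.35, at an adjusted p of 0.000144 from limma. It passed the test in all 15 alternatives tried, with a log2 fold change between −0.52 and −0.43.

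EFNB2 moved the other way. It encodes ephrin-B2, the transmembrane ligand of EphB4 that marks arterial endothelium, and lies on chromosome 13 from 106489731 to 106535662 on the minus strand. Vector libraries held 2.20, 2.22 and 2.22 FPKM, and shYB1 libraries held 2.74, 2.77 and 2.73 FPKM. Libraries within a group were nearly level, and the groups stood apart. The mean rose 1.24-fold, which was 0.30 on the log2 scale with a 95% confidence interval of 0.14 to 0.45 and a standard error of 0.070 (adjusted p = 0.0117 from limma). This call was kept in the 14 alternatives in which EFNB2 could be tested.

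EFNA5 and EPHA2 had smaller changes whose calls depended on the setting. EFNA5 encodes ephrin-A5, a repellent axon guidance cue, on chromosome 5 from 107376889 to 107670895 (minus strand). It had 9.56, 8.88 and 9.36 FPKM in vector libraries and 7.81, 8.69 and 8.16 FPKM in shYB1 libraries. The groups did not overlap, although shYB1 replicate 2 came close to vector replicate 2. The log2 fold change of −0.17 had a standard error of 0.056 and an adjusted p of 0.0478 from limma, and the adjusted p was under 0.05 in 8 of 15 alternatives, within a range of 0.0172 to 0.154. The call was lost without vector replicate 1 (adjusted p = 0.143 from limma), vector replicate 3 (0.1001), shYB1 replicate 1 (0.154) or shYB1 replicate 3 (0.101), and with the replicate number as a block (0.0666). EPHA2, on chromosome 1 from 16124337 to 16156087 (minus strand), rose by 8.95% of the vector mean. The log2 fold change was 0.12 (adjusted p = 0.0178 from limma) and became 0.068 (adjusted p = 0.116 from limma) with median-of-ratios size factors. The adjusted p for EPHA2 was under 0.05 in 9 of 15 alternatives, within a range of 0.0128 to 0.116. It was 0.0608 without vector replicate 1, 0.0527 without vector replicate 2 and 0.0648 without shYB1 replicate 1 (limma). The study stated, without showing the data, that YB1 knockdown did not significantly change EphA2 mRNA in its sequencing. Its rule for calling genes asked for a minimum mean fold change, which was not asked for here. For the protein, the study reported lower EphA2 on western blots of 786-O cells with YB1 knockdown. It also reported a shorter half-life of EphA2 in these cells under cycloheximide. Protein was not measured in the libraries used here.

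**Figure D2:**
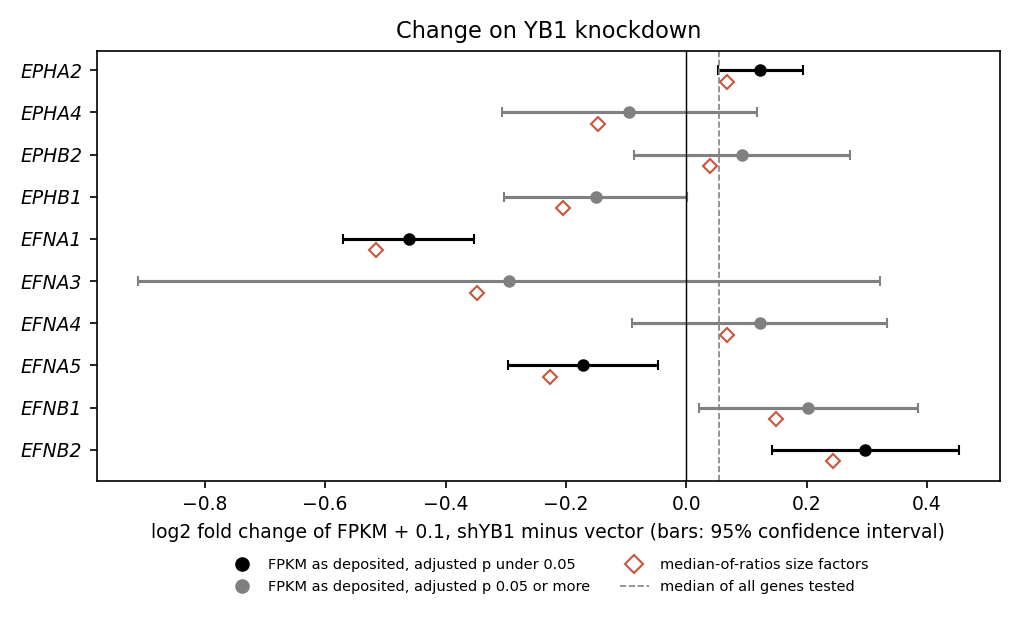
The log2 fold change of FPKM + 0.1 (shYB1 minus vector) with its 95% confidence interval for the 8 genes tested and for EPHB1 and EFNA3, black where the adjusted p from limma was under 0.05 and grey otherwise. Open red diamonds give the value with median-of-ratios size factors, and the dashed line is the median of all genes tested (0.055). EFNA1 lies at −0.46 and EFNB2 at 0.30, and the interval of EPHA2 starts at 0.053.

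The other ligands did not pass the test. EFNB1, the gene of ephrin-B1 on the X chromosome (68828997 to 68842147, plus strand), had 3.84, 3.44 and 3.64 FPKM in vector and 4.37, 4.51 and 3.75 FPKM in shYB1 libraries. The third shYB1 library fell among the vector values. Its log2 fold change was 0.20 (95% confidence interval 0.021 to 0.39, adjusted p = 0.0950 from limma), and leaving that library out gave 0.28 (adjusted p = 0.0317 from limma). EFNA4, the gene of ephrin-A4 on chromosome 1 (155063731 to 155069553, plus strand), had 6.02, 6.69 and 6.54 FPKM in vector and 5.99, 7.15 and 7.96 FPKM in shYB1 libraries. The shYB1 libraries spread over more than the whole vector range, and the interval of the log2 fold change was −0.090 to 0.33 (adjusted p = 0.376 from limma). Of the 50-base words of EFNA4, 10.7% are shared with other genes, most often with a read-through transcript that joins EFNA4 and EFNA3. How far this sharing affects the level of EFNA4 is unknown.

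The minor receptors were also without a call. EPHB2, an ephrin-B receptor on chromosome 1 (22710839 to 22921500, plus strand), had 2.49, 2.91 and 2.90 FPKM in vector and 2.94, 3.05 and 2.86 FPKM in shYB1 libraries. The groups overlapped, with a log2 fold change of 0.093 and an interval of −0.088 to 0.27 (adjusted p = 0.437 from limma). EPHA4, which binds ligands of both classes and lies on chromosome 2 (221418027 to 221574202, minus strand), had 2.003, 1.83 and 1.97 FPKM in vector and 1.70, 2.03 and 1.69 FPKM in shYB1 libraries. One shYB1 library was above all vector libraries and the other two below them, and the interval was −0.31 to 0.12 (adjusted p = 0.502 from limma). EPHB4, the receptor of ephrin-B2, lies on chromosome 7 (100802565 to 100827521, minus strand) and was under the filter. It had 0.589, 0.492 and 0.622 FPKM in vector and 0.378, 0.348 and 0.513 FPKM in shYB1 libraries, with overlapping groups. With no filter on low values its log2 fold change was −0.39 and its adjusted p 0.162 from limma. EPHB3, on chromosome 3 (184561784 to 184582409, plus strand), gave no value to compare. At most 0.241% of the 50-base words of any of the 5 receptors were found in transcripts of other genes, so they were well separated from one another at this length.

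Among the ligands EFNA1 held a smaller share of the summed FPKM in shYB1 cells, and EFNA4, EFNB1 and EFNB2 held larger ones. Shares of the family within 1 library do not depend on the scaling between libraries, and they are given as a description without a test, since the genes summed were chosen with earlier results known. The summed FPKM of the 3 ephrin-A genes was 31.9, 32.03 and 33.2 in vector and 26.6, 27.6 and 27.96 in shYB1 libraries. That of the ephrin-B genes was 6.04, 5.66 and 5.86 in vector and 7.10, 7.29 and 6.48 in shYB1 libraries. Neither sum overlapped between the groups. Among single genes tested, 12.5% did not overlap with shYB1 below vector and 30.1% with shYB1 above vector. EFNB1, the larger part of the ephrin-B sum, overlapped between the groups. The ephrin-B genes made up 15.3 ± 0.513% of ephrin FPKM in vector and 20.3 ± 1.26% in shYB1 cells (SD, n = 3 each).

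Within this pool the share of EFNA1 was 43.7 ± 0.623% in vector and 35.3 ± 2.27% in shYB1 cells (SD, n = 3 each). EFNB2 took 5.79 ± 0.106% and 8.0003 ± 0.106%, EFNB1 9.51 ± 0.522% and 12.3 ± 1.19%, and EFNA4 16.8 ± 0.953% and 20.5 ± 2.66% in the same order. None of these 4 shares overlapped between the groups, although that of EFNA4 in shYB1 replicate 1 (17.78%) was barely above that in vector replicate 2 (17.75%), and it overlapped with all ephrins of the table in the sum. The share of EFNA5, in contrast, overlapped at 24.2 ± 0.838% and 23.9 ± 0.884%. The shares of a library add up to the whole, so a smaller share of EFNA1 by itself leaves larger shares to the others. In FPKM, EFNA4 and EFNB1 overlapped between the groups, and neither passed the test (adjusted p = 0.376 and 0.0950 from limma). For 42.6% of all genes tested, the FPKM of the groups did not overlap. The EFNA1 to EFNB2 ratio was 7.44, 7.40 and 7.80 in vector and 4.67, 4.24 and 4.33 in shYB1 libraries.

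**Figure D3:**
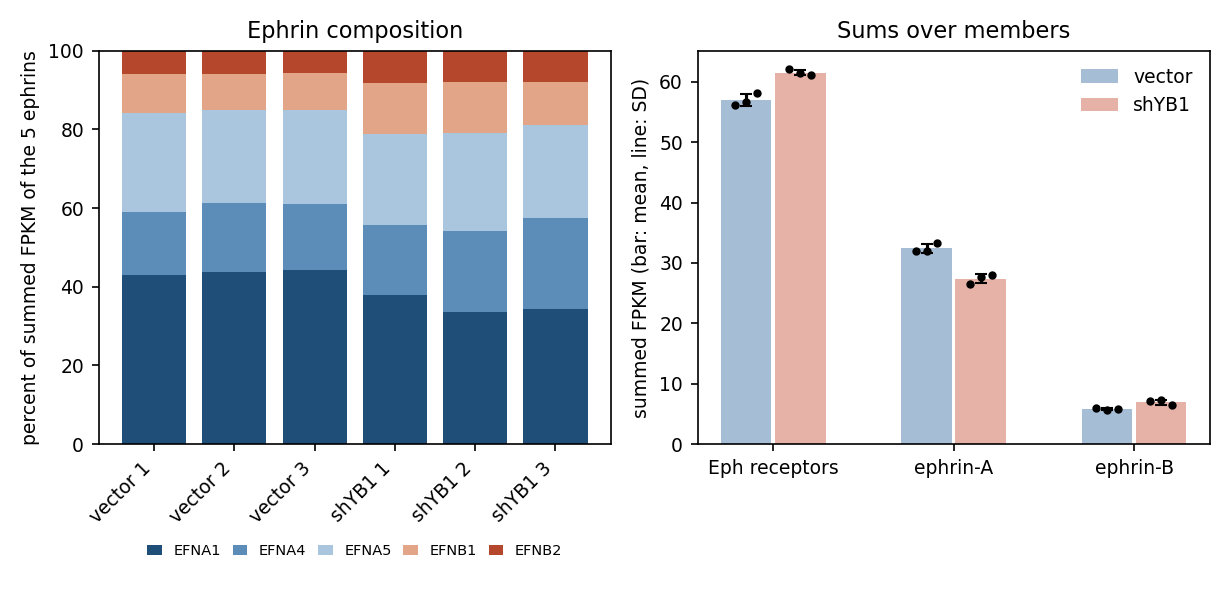
Left, the percent of the summed FPKM of the 5 ephrins held by each, with 1 bar per library. Right, the summed FPKM of the 5 receptors, the 3 ephrin-A and the 2 ephrin-B genes, with bars at the mean, lines for the SD and points for the 3 libraries of each group. The EFNA1 segment is 43.1% to 44.3% of the vector bars and 33.7% to 37.9% of the shYB1 bars.

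The ligand to receptor ratio of summed FPKM was 0.676, 0.666 and 0.672 in vector and 0.543, 0.568 and 0.564 in shYB1 libraries, a description of sums led by EPHA2 and EFNA1. For EPHA2 and EFNA1 alone, there were 3.12, 3.12 and 3.04 FPKM of receptor per FPKM of ligand in vector libraries. In shYB1 libraries there were 4.46, 4.76 and 4.73, all above the vector values. Most of this difference lay with the ligand, whose log2 fold change was −0.46 against 0.12 for the receptor. These ratios are of mRNA and cannot stand for the proteins, and the study reported less EphA2 protein on YB1 knockdown. Within the receptor pool, EPHA2 held 91.0%, 90.8% and 90.6% in vector and 91.9%, 91.2% and 91.7% in shYB1 libraries. EPHB4 held 0.996 ± 0.110% in vector and 0.672 ± 0.147% in shYB1 cells (SD, n = 3 each), and the shares of EPHA4 and EPHB2 overlapped between the groups.

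Of the 12 Eph and ephrin genes outside the 10, 3 receptors (EPHA3, EPHA8 and EPHA10) were listed at 0 in all libraries, and 7 genes were above 0 in some library but under the filter, none over 0.235 FPKM. The other 2 were tested. EPHB1, an ephrin-B receptor, had 4.92, 4.49 and 5.03 FPKM in vector and 4.10, 4.34 and 4.54 FPKM in shYB1 libraries, and was therefore the second most abundant receptor mRNA of the whole family. Its log2 fold change was −0.15 (95% confidence interval −0.30 to 0.0014, adjusted p = 0.132 from limma), and 1 of 14 alternatives called it. With all 14 receptors of the table in the sum, the share of EPHA2 was 83.2 ± 0.326% in vector and 85.2 ± 0.592% in shYB1 cells (SD, n = 3 each). EFNA3 had 2.32, 1.65 and 2.25 FPKM in vector and 1.86, 1.03 and 2.33 FPKM in shYB1 libraries. It was the most variable gene of the family tested (standard error 0.27 on the log2 scale, adjusted p = 0.460 from limma). Of its 50-base words, 42.2% are shared with other genes, most often with the EFNA4 to EFNA3 read-through.

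EFNA4, EFNA3 and EFNA1 lie in a row on chromosome 1, and their changes were not tested against each other. The 95% confidence interval of EFNA3 (−0.91 to 0.32) contained the log2 fold change of EFNA1 (−0.46). That of EFNA4 (−0.090 to 0.33) did not. The coding genes within 100000 bases of EFNA1 were listed after its value was seen. Of 11 such genes other than ephrins in the table, 8 were tested, of which 2 were lower, 1 was higher and 5 were not called, against 25.7% called over all genes. SLC50A1, a sugar transporter gene starting 487 bases beyond the end of EFNA1, overlapped between the groups (log2 fold change −0.081, adjusted p = 0.578 from limma). MUC1, a transmembrane mucin gene 50967 bases away, fell from 8.03 ± 0.396 to 5.13 ± 0.451 FPKM (SD, n = 3 each), and THBS3 fell from 2.67 ± 0.140 to 2.15 ± 0.0583 FPKM. ADAM15, next to EFNA4, rose from 32.8 ± 0.247 to 38.3 ± 1.60 FPKM. The adjusted p from limma was 0.000179 for MUC1, 0.0174 for THBS3 and 0.00266 for ADAM15.

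The proteins that carry the signals of the family were then examined by list. Among proteins that dock on activated Eph receptors, 19 of 24 genes were tested, of which 2 were lower, 7 higher and 10 not called, against 6.93% lower and 18.7% higher over all genes. The higher genes were led by RASA1, a GTPase-activating protein for Ras (log2 fold change 0.38), ABL2 (0.34) and CRK, an adaptor (0.25), and the lower ones were PIK3R1 (−0.30) and PTPN11 (−0.14). Under size-factor scaling there were 2 lower and 4 higher genes in this list, against 12% and 11.4% over all genes. Among proteins of ephrin reverse signalling, 2 of 8 tested genes were lower and 3 higher (6.93% and 18.7% over all genes), with the extracellular glycoprotein gene RELN at −0.49, STAT3 at −0.25 and the junction scaffold gene TJP1 at 0.37. PTPN13 (0.27) and GIT1 (0.22) were the other higher genes of this list. Of these named genes, the adjusted p from limma was highest for PTPN11 (0.0365) and was under 0.02 for the rest.

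Genes that act on the receptors and ligands themselves gave smaller counts, to be read against 6.93% lower and 18.7% higher over all genes. Of 7 tested proteases able to cleave Ephs or ephrins, MMP2 (log2 fold change −0.24) and MMP14 (−0.22) were lower and none was higher, while ADAM10 and ADAM17 were not called. Under size-factor scaling 4 of the 7 were lower, against 12% over all genes. Among phosphatases, ACP1 (0.28) and PTPRF (0.15) were higher of 5 tested. In the list of turnover and chaperone genes, the 2 genes of the HSP90 chaperone, HSP90AA1 (0.31) and HSP90AB1 (0.18), were higher of 6 tested, the ubiquitin ligase gene CBL was not called, and its relative CBLB was under the filter. None of the 7 kinases of the serine site of EphA2 (the RSK, AKT and PKA genes of the list) was called by limma, with log2 fold changes between −0.12 and 0.14, and 1 was lower under size-factor scaling.

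Beside the Ephs, 16 of 42 other receptor tyrosine kinases were tested, of which none was lower and 7 were higher (43.8%), against 18.7% higher over all genes. CSF1R (log2 fold change 0.58), AXL (0.53) and PTK7 (0.52) changed most, each by more than EPHA2. Under size-factor scaling the counts became 2 lower and 4 higher, against 12% and 11.4% over all genes. The list median was 0.098, and that of the 8 Eph and ephrin genes was 0.11. Of the guidance systems related to Ephs, semaphorins, plexins and neuropilins had 4 lower and 2 higher among 21 tested (28.6% called, near the 25.7% over all genes), with NRP1 (−0.43), SEMA6D (−0.33) and SEMA5B (−0.24) lower and SEMA7A (0.98) and PLXNA1 (0.18) higher. Under size-factor scaling 7 of this list were lower and 1 was higher, against 12% and 11.4% over all genes. Among 5 tested netrin, slit and repulsive guidance genes, only NTN4 was called, and it was higher (0.82), against 18.7% higher over all genes. The KEGG axon guidance pathway as annotated in the table holds 175 genes, 21 of them Ephs or ephrins. Of the 106 tested, 9 were lower and 21 higher (28.3%, near the 25.7% over all genes), and EFNA1 had the largest fall of all of them, ahead of NRP1 and MAPK3 (−0.36). SEMA7A, NTN4 and ABLIM3 (0.57) had the largest rises, and under size-factor scaling 13 genes were lower and 12 higher, against 12% and 11.4% over all genes.

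**Figure D4:**
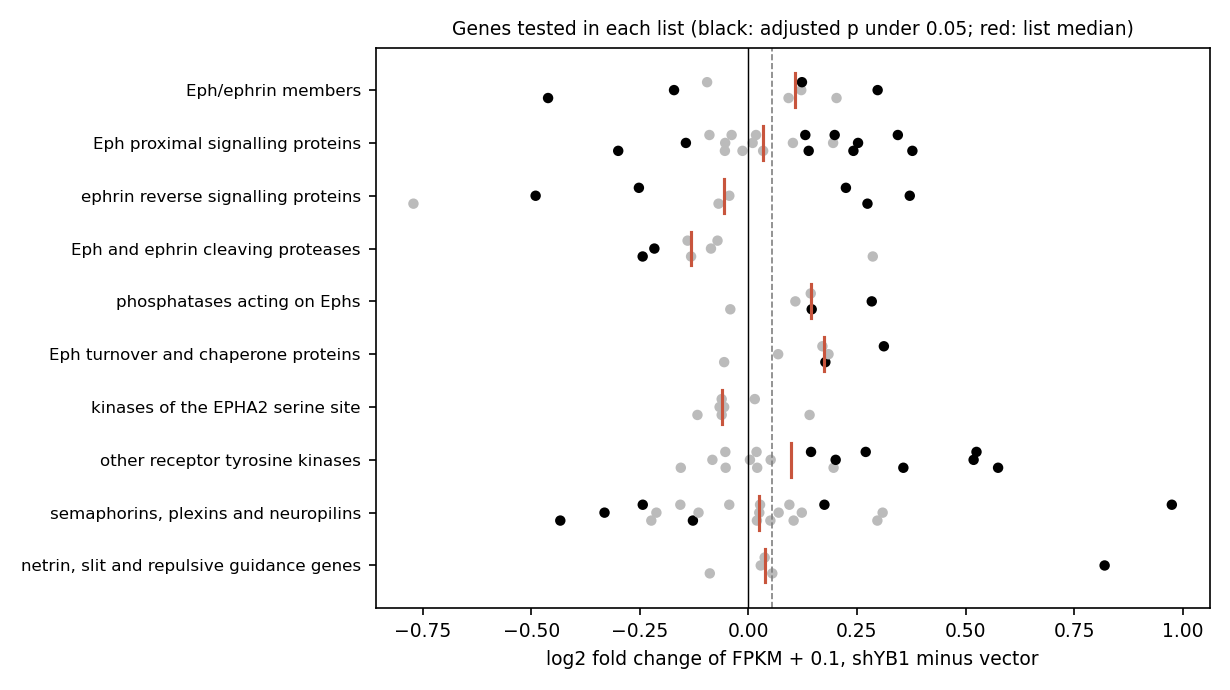
The log2 fold change of FPKM + 0.1 (shYB1 minus vector) of each gene tested in 10 lists, 1 point per gene, black where the adjusted p from limma was under 0.05. Red bars mark the list medians and the dashed line the median of all genes tested. The Eph and ephrin genes run from −0.46 to 0.30, a range within that of the other lists combined.

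The genes most like EPHA2 over the 6 libraries, by Pearson correlation of log2(FPKM + 0.1), were FANCI (r = 0.999), CES2 (0.998), MAP7D1 (0.997), EIF5A (0.997) and KLC2 (0.996). All 5 were higher in every shYB1 library than in any vector library. The points share 2 groups of 3 libraries, and 578 of 10438 genes had r of at least 0.95, so the ranking is a description only. Within the family, EFNB2 was closest to EPHA2 (r = 0.969, rank 273), and EFNA1 (r = −0.905) and EFNA5 (r = −0.862) ran against it.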

How the data were processed

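mRNA of 786-O cells was sequenced in 3 vector and 3 shYB1 libraries, grouped by their titles. The authors deposited FPKM for 20030 genes with KEGG annotation. The submitters' processing notes list GRCh38, Trimmomatic, HISAT2, Cufflinks, HTSeq and DESeq, without versions or roles. All 6 value columns were used, and 0 were left out. No counts were given, so depth and counting error are unknown.

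Here log2(FPKM + 0.1) was taken for genes averaging at least 1 FPKM and tested with limma 3.58.1 in R 4.3.3 (expression trend, robust prior, no replicate block), two-sided, and Benjamini-Hochberg adjusted p-values of all genes tested were called at 0.05. The study's methods name no test for sequencing, and its genes were selected by a minimum mean fold change together with a p-value. No minimum fold change was asked for here. The fitting step was tested on simulated data. Replicate numbers of the groups did not deviate together, so they were not treated as pairs. Gene models are GENCODE 29 and promoters RefSeq, both GRCh38. Sharing of 50-base words was counted over all GENCODE transcripts. Named genes are the 10 genes and YBX1, every other Eph or ephrin, up to 3 called genes with the largest fold changes in each direction per list, and the 5 genes most correlated with EPHA2. Named outside this rule, after their values were seen, are PAX8, VIM, CDH5, EMCN, CD3E, COL1A2, LUM, ACTA2, ADAM10, ADAM17, CBL and CBLB. So are the neighbours SLC50A1, MUC1, THBS3 and ADAM15. The genes and lists were chosen with earlier results of these data known. The alternatives were other pseudocounts, filters, scalings and variance priors, the replicate block, sums over the whole family and each library left out. Some genes and 1 gene list are not reported here.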

Additional observations from a re-analysis of the deposited data

How the results depend on the processing

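The falls of YBX1 and EFNA1 and the rise of EFNB2 stayed past the threshold under every alternative in which they could be tested. EPHA2 kept its direction but lost its call with median-of-ratios size factors (log2 fold change 0.068, adjusted p = 0.116 from limma), quantile normalization (0.076) and a variance prior without trend (0.12), and ranged from 0.11 to 0.14 with single libraries left out. The count of lower genes among the 10 went from 2 to 1 with no filter, with the prior without trend and with the replicate block. The count of higher genes went from 2 to 1 with a filter at 5 FPKM, which removed EFNB2, with size factors, with quantile normalization and with the prior without trend. With single libraries left out the counts were 1 to 2 lower and 1 to 3 higher. EFNA3 turned to 0.021 without shYB1 replicate 2, within a range of −0.53 to 0.021 with single libraries left out. With the replicate block, only the call of EFNA5 changed among the 10 (adjusted p = 0.0666 from limma), and EPHA2 kept its call (adjusted p = 0.0188 from limma). Deviations from the group means correlated between −0.169 and −0.00824 for same-numbered libraries, so this block has no support as a pairing. The rise in the EPHA2 share of receptor FPKM was 0.834 percentage points over the 5 receptors and 2.0003 over all receptors. With single libraries left out it was 0.679 to 1.04, that of the EFNB1 share 2.41 to 3.45 points, and the ligand to receptor ratio differed by −0.118 to −0.105. Without counts no detection limit can be given.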
